A study of Bos taurus with 16 samples.

Results

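The levels of CREB5 (ENSBTAG00000018909) and of PRG4 (ENSBTAG00000011932), the gene for lubricin, were set side by side across shRNA, TGF-β2 and libraries from the same calf. The 2 genes were chosen by name from the 19454 genes counted, as the target of the shRNA and as a gene described as its target in turn, and both had counts in 16 of 16 libraries. The cells were bovine chondrocytes from superficial slices of the knee cartilage of 4 calves aged 1 to 2 weeks, infected with lentivirus that carried a scrambled shRNA in the control cells (shScramble) and one against Creb5 in the others (shCreb5), and selected in 0.8 µg/ml puromycin for 5 days. They were then held for 48 h on low-attachment plates with 100 ng/ml TGF-α alone (condition A) or with 100 ng/ml TGF-α and 20 ng/ml TGF-β2 (condition AB), so every library, controls included, had received TGF-α, a lentivirus and puromycin. Each calf gave 1 RNA-Seq library to each of the 4 groups, and the cells of different calves were not pooled. The target sequence of the shRNA was not given in the sources used here.

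Lubricin is a large, heavily O-glycosylated proteoglycan that coats the surface of joints and is made by chondrocytes of the superficial zone and by cells of the synovial lining. CREB5 is a basic leucine zipper factor of the ATF and CREB family, and TGF-β signaling through SMAD proteins is a known inducer of PRG4 in cartilage. The libraries held 14710867 to 21853634 counts, with 15323 to 16368 genes detected in each.

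The cartilage label was checked against marker genes. Of 10 listed articular chondrocyte markers, 3 could be named in these data: COL11A1 at 898 to 14992 CPM (counts scaled to the size of the library), HAPLN1 at 1003 to 8263 CPM and CHAD at 1.99 to 97.0 CPM. The superficial zone markers CLU and VIT, beside PRG4 and CREB5, summed to 2102 to 9743 CPM. Macrophage markers (CD68, 1.13 to 71.7 CPM, and CD14, 11.1 to 31.3 CPM), endothelial markers (VWF and TEK, summed 6.70 to 23.6 CPM), adipocyte markers (FABP4 and LPL, summed 6.37 to 60.5 CPM) and the bone marker DMP1 (8.21 to 21.9 CPM) lay below COL11A1 and HAPLN1 but in the range of CHAD. The hypertrophic chondrocyte marker SPP1 was present at 97.6 to 2871 CPM, above CHAD. VCAM1, listed for both superficial zone chondrocytes and the synovial lining, was present at 434 to 3031 CPM. The other synovial lining markers that could be named were THY1 at 23.8 to 533 CPM, CD55 at 12.9 to 725 CPM and HAS1 at 0 to 0.615 CPM.

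CREB5 was a gene of moderate abundance, its counts lying between 445 and 3086. In condition A the shScramble libraries of calves 1 to 4 had 124, 71.4, 77.8 and 105 CPM of CREB5, a mean of 94.5 ± 24.3 (SD, n = 4). The shCreb5 libraries of the same calves had 86.1, 44.7, 57.7 and 72.6 CPM, a mean of 65.3 ± 17.9 (SD, n = 4). These ranges overlapped, since shCreb5 cells of calves 1 and 4 held more CREB5 RNA than shScramble cells of calf 2. In condition AB the shScramble libraries had 83.0, 59.0, 62.7 and 78.7 CPM, a mean of 70.9 ± 11.8 (SD, n = 4), and the shCreb5 libraries had 43.0, 36.2, 31.1 and 34.9 CPM, a mean of 36.3 ± 4.97 (SD, n = 4). Here the ranges did not overlap. From the lowest library to the highest, CREB5 spanned 3.98-fold.

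PRG4 was among the most abundant RNAs and far more variable between calves. In condition A the shScramble libraries of calves 1 to 4 had 12567, 4309, 18914 and 9569 CPM of PRG4, a mean of 11339.5 ± 6095 (SD, n = 4). The shCreb5 libraries had 8463, 2464, 13743 and 5968 CPM, a mean of 7659.7 ± 4744 (SD, n = 4). In condition AB the shScramble libraries had 58341, 13872, 58472 and 44781 CPM, a mean of 43867 ± 21003 (SD, n = 4). The PRG4 ranges of the shRNAs overlapped in condition A. In the shCreb5 libraries of condition AB PRG4 stood at 25064, 6378, 58499 and 36998 CPM, a mean of 31735 ± 21844 (SD, n = 4), which again overlapped the shScramble values. The conditions overlapped too, because calf 2 with TGF-β2 (13872 CPM) lay below calf 3 without it (18914 CPM) in shScramble cells. PRG4 spanned 23.7-fold over the libraries and took 0.240% (95% Wilson interval 0.238% to 0.242%) of all counts in the library with the smallest share and 5.69% (5.68% to 5.70%) in that with the largest. It was the most abundant gene of all in 4 of 16 libraries.

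**Figure D1:**
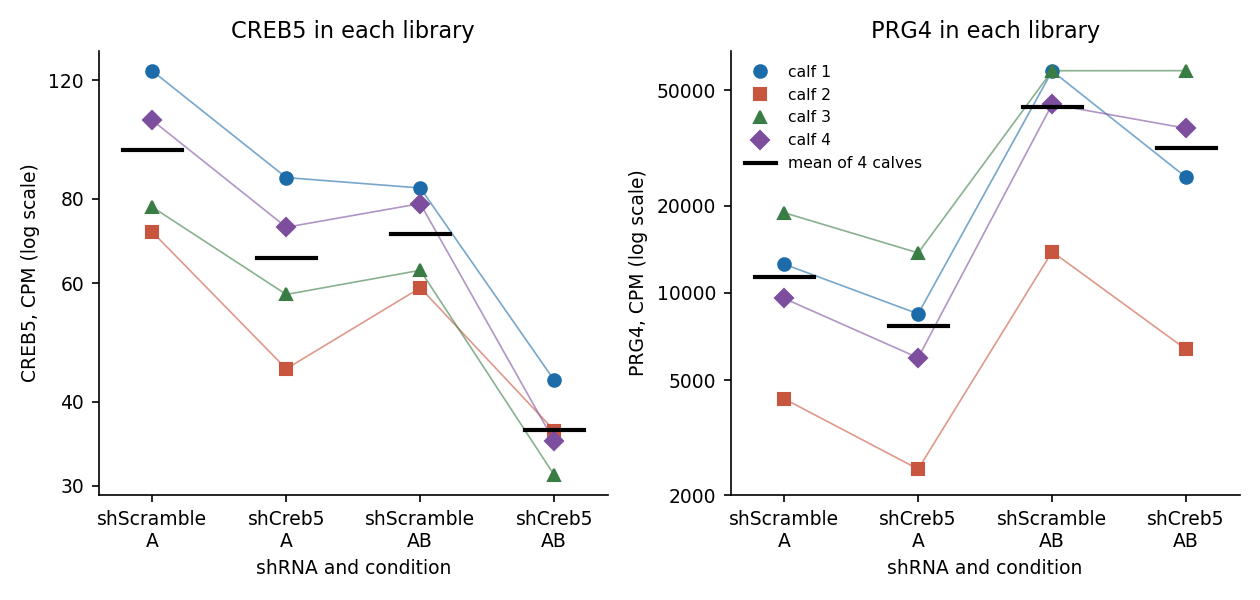
CPM of CREB5 and of PRG4 on log axes in the 4 groups, with a point per library joined by calf and a bar at each group mean. CREB5 was highest in shScramble cells of condition A (mean 94.5 CPM) and lowest in shCreb5 cells of condition AB (36.3 CPM), while PRG4 was lowest in shCreb5 cells of condition A (7659.7 CPM) and highest in shScramble cells of condition AB (43867 CPM).

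The groups therefore stood in different orders for the factor and for lubricin. CREB5 ran from shScramble A through shScramble AB and shCreb5 A down to shCreb5 AB in calves 2, 3 and 4. The middle groups of that order did not differ beyond the spread between calves: shCreb5 A minus shScramble AB was 0.051, -0.40, -0.12 and -0.12 log2 units in calves 1 to 4, a mean of -0.15 ± 0.19 (SD, n = 4; exact sign-flip p = 0.250). PRG4 ran from shScramble AB through shCreb5 AB and shScramble A down to shCreb5 A in calves 1, 2 and 4, and in calf 3 its top groups were level. The shCreb5 cells of condition AB thus had the least CREB5 and yet more PRG4 than the shScramble cells of condition A in 4 of 4 calves. Between these groups CREB5 differed by -1.35 ± 0.27 log2 units and PRG4 by 1.29 ± 0.62 (SD, n = 4), and PRG4 stood at 148% to 387% of its level in shScramble cells of condition A.

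The calf with the highest level was not the same for the 2 genes, calf 3 having the most PRG4 and calf 1 the most CREB5 in every group. Calf 2 had the least PRG4 in every group and the least CREB5 in 3 of 4. The full order of the calves was the same in 3 groups for each gene and changed in shCreb5 AB, where calf 3 in place of calf 2 had the least CREB5 and calves 1 and 4 changed places for PRG4. For CREB5 the highest calf exceeded the lowest by 1.73-fold in shScramble A, 1.92-fold in shCreb5 A, 1.41-fold in shScramble AB and 1.38-fold in shCreb5 AB. For PRG4 the same comparison gave 4.39-fold, 5.58-fold, 4.22-fold and 9.17-fold. With 4 calves no correlation between the levels of the genes across animals was computed.

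With shCreb5 in condition A, both genes were lower in each calf, and by similar amounts. CREB5 differed by -0.53, -0.67, -0.43 and -0.53 log2 units in calves 1 to 4 and PRG4 by -0.57, -0.81, -0.46 and -0.68. The calves ranked alike for both genes, calf 2 with the largest difference and calf 3 with the smallest, though calves 4 and 1 between them were nearly level for CREB5. CREB5 kept 62.7% to 74.2% of its shScramble level and PRG4 57.2% to 72.7%. The mean differences were -0.54 ± 0.10 for CREB5 and -0.63 ± 0.15 for PRG4 (SD, n = 4). Each was lower in 4 of 4 calves, for which the exact sign-flip p was 0.125, the smallest that 4 pairs can give.

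In condition AB the pairs came apart. CREB5 differed between shCreb5 and shScramble by -0.95, -0.70, -1.01 and -1.17 log2 units in calves 1 to 4, a mean of -0.96 ± 0.19 (SD, n = 4), and was lower in 4 of 4 calves. PRG4 differed by -1.22 in calf 1 and -1.12 in calf 2, but by 0.00066 in calf 3 and -0.28 in calf 4. Calf 3 kept 49.7% of its CREB5 and 100.0% of its PRG4, and calf 4 kept 44.4% of its CREB5 and 82.6% of its PRG4, so the calves with the largest differences in CREB5 had the smallest in PRG4. The mean difference of PRG4 was -0.65 ± 0.61 (SD, n = 4), with 3 of 4 calves lower (exact sign-flip p = 0.250). Averaged over both conditions, calves 1 to 4 had CREB5 differences of -0.74, -0.69, -0.72 and -0.85, within a narrow band, and PRG4 differences of -0.89, -0.96, -0.23 and -0.48.

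**Figure D2:**
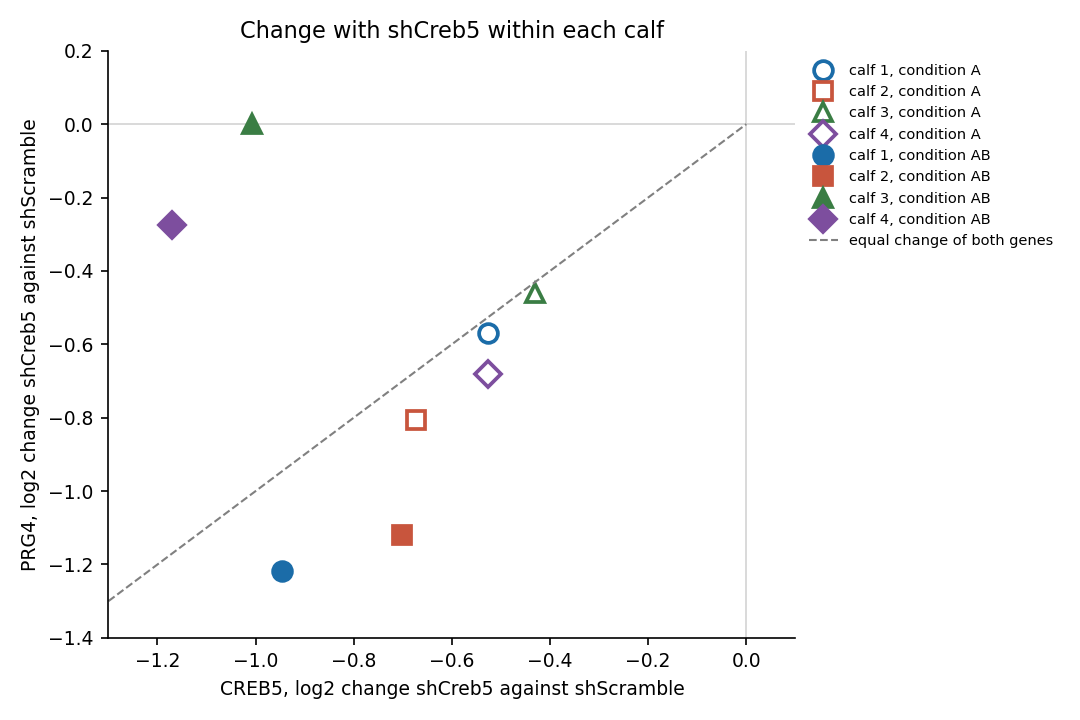
Log2 change with shCreb5 of PRG4 against that of CREB5, a point per calf, open in condition A and filled in condition AB, with a dashed line where both changes are equal. In condition A the 4 calves lay between -0.67 and -0.43 for CREB5 and between -0.81 and -0.46 for PRG4, whereas in condition AB PRG4 ranged from -1.22 in calf 1 to 0.00066 in calf 3.

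These changes were tested with edgeR over all genes that passed a filter on low counts, with the calf in the model and p-values adjusted by Benjamini-Hochberg to a threshold of 0.05. Among all genes tested, the share called was 0% for shCreb5 in condition A, 0% for shCreb5 in condition AB and 0% for the difference between these effects. It was 20.2% for TGF-β2 in shScramble cells, 31.0% for TGF-β2 in shCreb5 cells, 0.239% for shCreb5 averaged over the conditions and 40.8% for TGF-β2 averaged over the shRNAs. At unadjusted p under 0.05 it was 8.97% for shCreb5 in condition A, 8.58% in condition AB and 4.37% for their difference. The pairwise comparisons share libraries, each group serving in a comparison of shRNA and in one of TGF-β2. The averaged fits hold both pairs of each calf, which are not independent, so their p-values and intervals can overstate the evidence. Cells of a calf with the same shRNA also shared an infection and were split between the conditions only afterwards.

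Within condition A edgeR called 0 of 12922 genes for shCreb5, with 1159 at unadjusted p under 0.05 and 79 called by DESeq2. CREB5 had the 9th smallest p of all genes there (log2 change -0.54, 95% confidence interval -0.73 to -0.35, adjusted p = 0.313) and PRG4 the 247th (-0.63, -1.05 to -0.21, adjusted p = 0.509). Both calls depended on the method, since adjusted p over the alternatives ran from 6.99e-05 (DESeq2) to 1 for CREB5 and from 8.77e-07 (DESeq2) to 1 for PRG4. Within condition AB edgeR called 0 of 12664 genes, with 1087 at unadjusted p under 0.05 and 55 called by DESeq2. CREB5 had the 3rd smallest p (-0.96, -1.20 to -0.72, adjusted p = 0.130), with adjusted p from 1.02e-08 (DESeq2) to 1 over the alternatives. PRG4 ranked 1079th (-0.65, -1.31 to -0.0017, adjusted p = 0.580) and passed under none of the alternatives, whose lowest adjusted p was 0.302.

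Averaged over both conditions, 32 of 13372 genes passed in edgeR, 9 up and 23 down. Without calf 1 there were 356, without calf 2 20, without calf 3 9 and without calf 4 2. CREB5 fell by this measure, with the 4th smallest p of all genes (-0.74, -0.94 to -0.54, adjusted p = 0.00382), although its adjusted p was 0.0649 without calf 4 and was 0.197 with the counts of both conditions summed and 0.342 with no block for the calf, in a span of 4.86e-10 to 0.342 over the alternatives. The averaged change of PRG4 was -0.63 (-1.01 to -0.24), or 64.7% of the shScramble level (49.6% to 84.5%), ranked 286th by p and did not pass in edgeR (adjusted p = 0.161). DESeq2 called it (adjusted p = 0.00408), and over all alternatives its adjusted p ran from 0.00408 to 0.999. Counts summed per calf and shRNA, which leave a single pair per calf, gave -0.67 for CREB5 and -0.66 for PRG4. Neither passed there (edgeR adjusted p = 0.197 and 0.663). The median log2 change over all genes tested was -0.0016.

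With TGF-β2 the factor and lubricin moved in opposite directions in every calf. In shScramble cells CREB5 changed by -0.58, -0.27, -0.31 and -0.41 log2 units in calves 1 to 4, a mean of -0.39 ± 0.13 (SD, n = 4). PRG4 rose there by 4.64-fold, 3.22-fold, 3.09-fold and 4.68-fold, a mean log2 change of 1.94 ± 0.33 (SD, n = 4). In shCreb5 cells CREB5 changed by -1.0, -0.30, -0.89 and -1.05, a mean of -0.81 ± 0.35 (SD, n = 4). PRG4 rose in these cells by 2.96-fold, 2.59-fold, 4.26-fold and 6.20-fold, a mean log2 change of 1.91 ± 0.57 (SD, n = 4). Calf 2 had the smallest CREB5 change under either shRNA, and calf 4 the largest PRG4 rise.

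**Figure D3:**
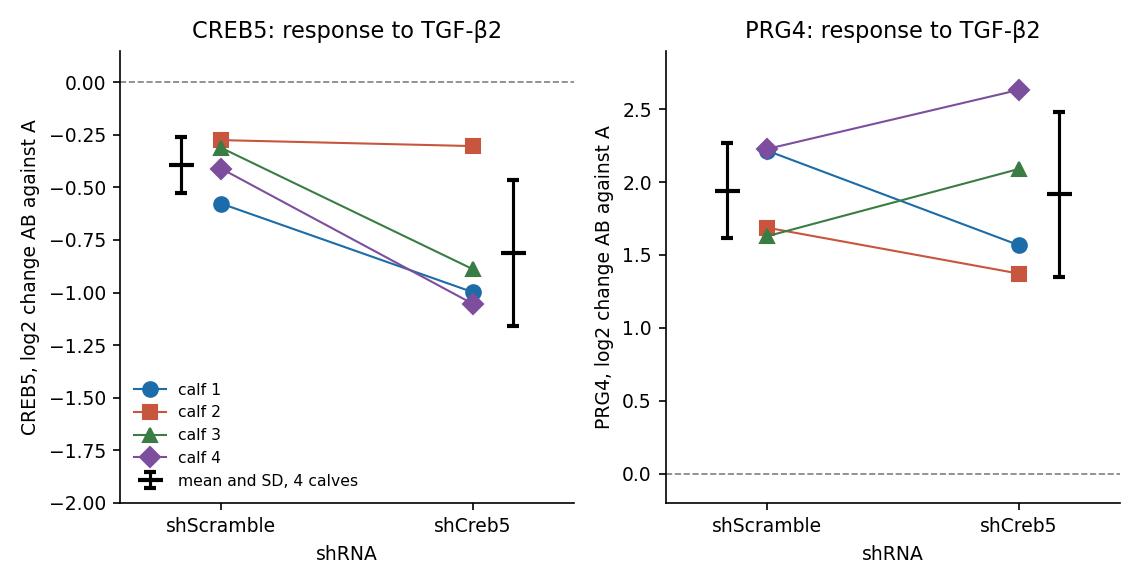
Log2 change with TGF-β2 of CREB5 and of PRG4 in shScramble and shCreb5 cells, a point per calf joined between the shRNAs and black bars for the mean and SD of 4 calves. All CREB5 changes were below 0 (means -0.39 and -0.81) and all PRG4 changes above 1 (means 1.94 and 1.91).

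Averaged over the shRNAs, edgeR put the change with TGF-β2 at -0.60 for CREB5 (-0.80 to -0.40, adjusted p = 1.54e-04), or 66.0% of the level without TGF-β2, and at 1.95 for PRG4 (1.55 to 2.35, adjusted p = 2.53e-06), or 3.86-fold (2.93 to 5.09). Both held under all 13 alternatives, with log2 changes of -0.70 to -0.54 for CREB5 and 1.78 to 2.09 for PRG4. Of 13372 genes, 2790 rose and 2667 fell, so neither direction was unusual. In size, the rise of PRG4 was the 188th highest of all genes. In shScramble cells alone the result was weaker: CREB5 passed (adjusted p = 0.0191) but not when any calf was left out (0.0539 to 0.0630), and PRG4 passed (adjusted p = 0.00729) but not without calf 4 (0.0729), nor in DESeq2 (0.0863, in a range of 2.81e-04 to 0.268 over the alternatives). In shCreb5 cells both passed (adjusted p = 0.00358 for CREB5 and 0.00214 for PRG4), and did so under 12 of 13 alternatives, the exception being the fit with no block for the calf.

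The response of PRG4 to TGF-β2 was about the same size in shScramble and shCreb5 cells on average, while single calves went opposite ways. The response was smaller in shCreb5 cells by -0.65 in calf 1 and -0.32 in calf 2 and larger by 0.46 in calf 3 and 0.41 in calf 4, a mean of -0.024 ± 0.55 (SD, n = 4; exact sign-flip p = 1). The fitted difference was 0.0092 (-0.81 to 0.83, edgeR adjusted p = 0.999), an interval wide enough to hold a change of either sign, and its sign turned with the alternative. For CREB5 the same difference was -0.42, -0.028, -0.58 and -0.64 in calves 1 to 4, lower in 4 of 4, and the fit gave -0.41 (-0.75 to -0.08, edgeR adjusted p = 0.95). No gene passed this test, 0 of 13372 in edgeR, with 585 at unadjusted p under 0.05 and 10 called by DESeq2.

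**Figure D4:**
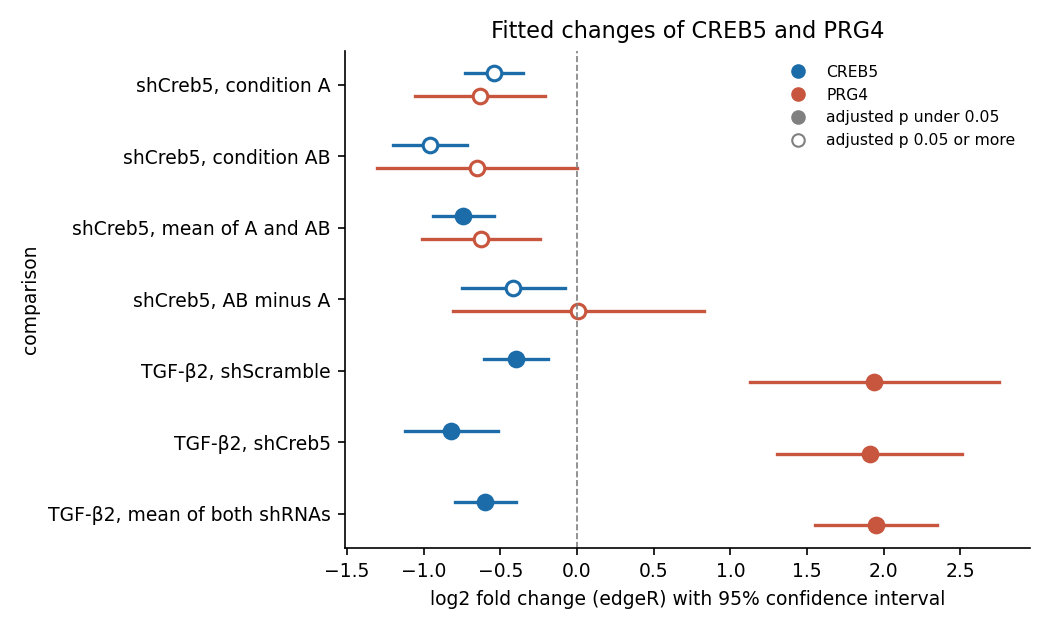
Fitted log2 changes of CREB5 and PRG4 in edgeR for each comparison, points with 95% confidence intervals, filled where adjusted p was under 0.05. Averaged over the shRNAs, TGF-β2 gave -0.60 for CREB5 and 1.95 for PRG4, and averaged over the conditions, shCreb5 gave -0.74 and -0.63.

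The log2 ratio of PRG4 to CREB5 in each library puts the pair on a single scale, of which only the changes between groups can be read because CPM are not corrected for the lengths of the genes. Its mean was 6.75 ± 0.85 in shScramble A, 6.66 ± 0.89 in shCreb5 A, 9.09 ± 0.86 in shScramble AB and 9.39 ± 1.46 in shCreb5 AB (SD, n = 4). Calf 3 had the highest ratio and calf 2 the lowest in every group. With shCreb5 in condition A the ratio differed by only -0.045, -0.13, -0.030 and -0.15 in calves 1 to 4, lower in 4 of 4 (mean -0.090 ± 0.062, exact sign-flip p = 0.125). In condition AB it differed by -0.27, -0.42, 1.01 and 0.90 (mean 0.30 ± 0.75, exact sign-flip p = 0.5), a mean that ran from 0.068 without calf 3 to 0.54 without calf 2. The change in the ratio with shCreb5 did not differ between the conditions beyond the spread of the calves (mean 0.39 ± 0.75, exact sign-flip p = 0.5), with means from 0.18 without calf 4 to 0.62 without calf 2. With TGF-β2 the ratio was higher in 4 of 4 calves under either shRNA, by 2.33 ± 0.45 in shScramble cells and 2.73 ± 0.84 in shCreb5 cells (SD, n = 4).

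**Figure D5:**
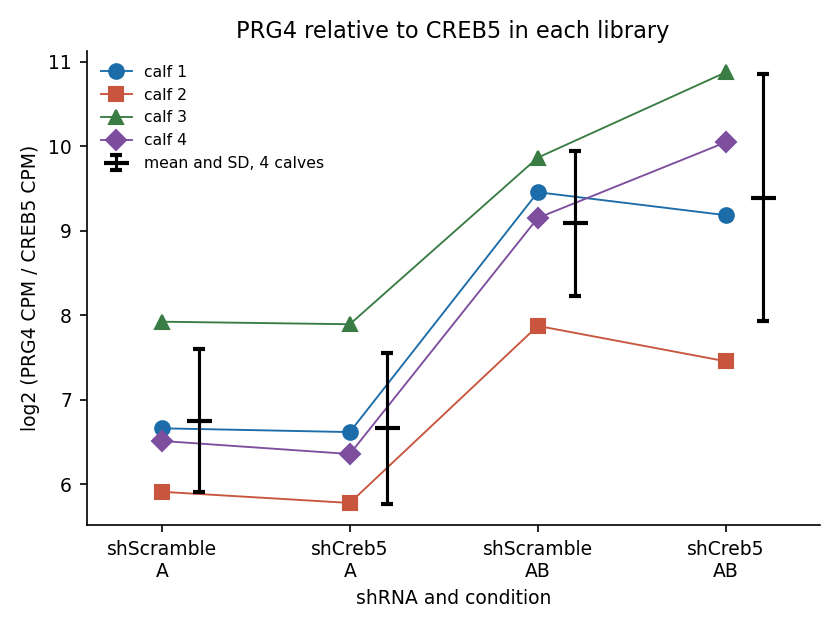
Log2 ratio of PRG4 to CREB5 CPM in the 4 groups, a point per library joined by calf, with black bars for the mean and SD of 4 calves. Means were 6.75 and 6.66 in condition A and 9.09 and 9.39 in condition AB for shScramble and shCreb5, with calf 3 highest and calf 2 lowest throughout.

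Likeness to each member was measured as the Pearson correlation with 13371 other genes over log2 CPM with each calf's mean removed, across 16 libraries that share 4 calves, and is given as a description. CREB5 and PRG4 were not alike by this measure (r = -0.354, n = 16), PRG4 taking place 9400 for CREB5. That r holds changes already given, opposite with TGF-β2 and both downward on average with shCreb5, and is no separate result. The genes most like CREB5 were ENSBTAG00000046308 (r = 0.968), PLPPR4 (r = 0.968), GLYR1 (r = 0.942), MYO5C (r = 0.938) and ENSBTAG00000026192 (r = 0.930). Since shRNA and TGF-β2 made up the differences between libraries of the same calf, these genes were picked in part for following both treatments, and their changes with either are no separate result. Most opposite to CREB5 were HSPD1 (r = -0.943), NSA2 (r = -0.938) and EIF2S2 (r = -0.924). For PRG4 the most alike were ENSBTAG00000010276 (r = 0.974), CDR2 (r = 0.969), HAPLN3 (r = 0.962), ADAMTS6 (r = 0.961) and ENSBTAG00000032372 (r = 0.961), and the most opposite ENSBTAG00000039162 (r = -0.978), ENSBTAG00000009005 (r = -0.978) and NEBL (r = -0.967). At r above 0.9 there were 8 genes with CREB5 and 283 with PRG4. The choice of genes was fragile, since with Spearman correlation 1 of the 5 most like CREB5 and 1 of the 5 most like PRG4 remained.

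Genes with roles near the pair were read from lists, of which only those with a symbol at hand could be followed, and the symbols came from tables sorted by significance of the knockdown. The lists were therefore weighted toward genes that differ with shCreb5: 31 of the 59 tested genes on the pathway lists had unadjusted p under 0.05 there, against 13.9% of all genes. Of these 59, which leave out CREB5 and PRG4, 2 fell with shCreb5 averaged over the conditions, TGFBR1 (-0.69, SE 0.09) and HBEGF (-1.19, SE 0.22), where 0.239% of all genes passed, and 38 changed with TGF-β2, where 40.8% of all genes did. With shCreb5 neither TGFBR1 nor HBEGF passed without calf 3 (adjusted p = 0.0812 and 0.151) or without calf 4 (0.112 and 0.234). Both calls were also lost with no block for the calf and with the counts of both conditions summed, where edgeR called no gene. Among 4 other bZIP factors (5 of 31 listed had an identifier), CREM rose with TGF-β2 (0.55, SE 0.16), opposite to CREB5, while the median of the 4 was 0.0060. The change of CREM was 0.90 in shCreb5 cells (edgeR adjusted p = 0.00157) and 0.23 in shScramble cells, where it did not pass (0.249). Of 7 other factors and receptors known to act on PRG4 (8 of 26 listed), 2 rose with TGF-β2, NFATC2 by 3.02 (SE 0.25) and TGFBR1 by 0.38 (SE 0.09), and TGFBR3 fell by -0.68 (SE 0.11), with a median of 0.021. Of 6 O-glycosylation enzymes (6 of 21 listed), which could act on lubricin, 3 rose with TGF-β2 as PRG4 did: GALNT15 by 2.44 (SE 0.20), GALNT10 by 0.71 (SE 0.16) and ST3GAL1 by 0.58 (SE 0.19), the median being 0.57. ST3GAL1 passed under neither shRNA alone (edgeR adjusted p = 0.0662 in shScramble and 0.133 in shCreb5 cells). GALNT10 did not pass in shScramble cells alone (0.43, edgeR adjusted p = 0.120). Of 6 genes for lubrication and partners of lubricin (7 of 14 listed had an identifier), HAS2 (1.96, SE 0.29) and CD44 (0.51, SE 0.12) rose and CTSB (-1.15, SE 0.12), TLR4 (-0.75, SE 0.13) and CLU (-0.64, SE 0.11) fell, with a median of -0.43.

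With TGF-β2, 2790 genes rose and 2667 fell among 13372 (40.8% in all), against which the counts of these smaller lists are to be read. PRG4 did not move with the other superficial zone and joint-forming genes as a body, of which 3 of 8 tested (9 of 17 listed had an identifier, PRG4 included) rose with TGF-β2 and 5 fell, with a median of -0.70. DPT rose by 7.25 (SE 0.30), SFRP4 by 1.91 (SE 0.31) and GDF5 by 1.59 (SE 0.21), whereas VIT fell by -1.90 (SE 0.26) and VCAM1 by -1.36 (SE 0.17). Of 4 chondrocyte identity genes (4 of 20 listed), CHAD (2.28, SE 0.24) and COL11A1 (0.75, SE 0.26) rose, with a median of 0.73, though COL11A1 did not pass without calf 1 (0.46, adjusted p = 0.105) or without calf 3 (0.71, adjusted p = 0.102). Of 9 direct TGF-β targets (9 of 24 listed) 6 rose, among them TGFBI (3.86, SE 0.40) and LTBP2 (1.35, SE 0.17), with a median of 0.67. Of 13 EGFR and ERK targets (13 of 22 listed) 2 rose, LIF by 2.41 (SE 0.24) and PHLDA1 by 1.34 (SE 0.12), and 7 fell, EGR3 the most (-1.39, SE 0.24) and then DUSP4 (-1.11, SE 0.16), with a median of -0.53. Of 4 interferon-response genes (4 of 20 listed) MX2 (-2.06, SE 0.70) and IFIT1 (-1.01, SE 0.35) fell, with a median of -1.19. Neither was firm: MX2 kept its call in 7 of 12 alternatives, losing it without calf 1, 2 or 3 (-1.22 without calf 3, adjusted p up to 0.103), and IFIT1 in 9 of 13, losing it without calf 2 or 4 (adjusted p up to 0.0828) and standing at -0.62 without calf 3. For lists with no gene called by edgeR for averaged shCreb5 beside CREB5, the most abundant genes had log2 changes of -0.37 (GALNT11, SE 0.11), 0.29 (ST6GALNAC4, SE 0.10), -0.34 (CLU, SE 0.11), 0.19 (CTSB, SE 0.12), 0.29 (TNC, SE 0.17), 0.010 (COL11A1, SE 0.25), -0.073 (HAPLN1, SE 0.19), -0.57 (CCN2, SE 0.20), -0.046 (LTBP3, SE 0.13), 0.15 (IFIT5, SE 0.14) and 0.068 (IFIT1, SE 0.36). Over all the pathway lists, including those with a gene called, the medians with shCreb5 lay between -0.49 for the superficial zone genes and 0.23 for the EGFR and ERK targets.

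Among the marker lists, examined for calf order after the values were seen, the synovial lining list was the only one of 8 whose summed CPM ranked the calves as PRG4 did in 4 of 4 groups. The groups hold the same calves, and all but shCreb5 AB had the same PRG4 order, so they are not separate observations. The share of all genes with this order is not given. The sum of the synovial lining list, mostly VCAM1, ran from 537.5 CPM in calf 2 to 2663 CPM in calf 3 in shCreb5 cells of condition AB, where PRG4 ran from 6378 to 58499 CPM. With TGF-β2 the sum moved against PRG4, by -1.20 ± 0.16 log2 units in shScramble cells and by -1.14 ± 0.44 in shCreb5 cells (SD, n = 4), lower in 4 of 4 calves each. The list did not move as a body, since VCAM1 (-1.36, SE 0.17) and CD55 (-1.84, SE 0.18) fell and THY1 rose (1.28, SE 0.21) as PRG4 did. With shCreb5 the sum differed by 0.54, -0.12, 0.67 and 0.53 in calves 1 to 4 in condition A and by 0.068, -0.26, 1.26 and 0.80 in condition AB, so in condition AB it stood highest against shScramble in calves 3 and 4, whose PRG4 differed least (0.00066 and -0.28). The articular chondrocyte sum was highest in calf 2, which had the least PRG4, in every group (18690 to 22416 CPM). With shCreb5 that sum differed by 0.68, 0.13, -1.07 and -1.02 in calves 1 to 4 in condition A. In condition AB it was higher in 4 of 4 (0.0046 to 0.77, mean 0.28 ± 0.34). With TGF-β2 it was higher in 2 of 4 calves in shScramble cells (0.26 ± 0.71) and in 4 of 4 in shCreb5 cells (0.86 ± 0.55). Like CREB5, the sum of the superficial zone markers CLU and VIT was lower with either treatment: with shCreb5 by -0.30 ± 0.25 in condition A and -0.43 ± 0.31 in condition AB, and with TGF-β2 by -0.64 ± 0.11 in shScramble cells and -0.77 ± 0.24 in shCreb5 cells (SD, n = 4), in 4 of 4 calves each. This sum was mostly CLU (mean 5029 CPM, against 196 CPM for VIT) and does not stand for the zone as a whole. Markers of other cell types also fell with TGF-β2, as CREB5 did while PRG4 rose: SPP1 by -2.73 (SE 0.24), FABP4 by -2.36 (SE 0.37), CD68 by -1.36 (SE 0.23) and VWF by -1.26 (SE 0.17). TEK rose by 0.41 (SE 0.13) but lost its call when calf 2, 3 or 4 was left out (adjusted p up to 0.125), and CD14 (-0.15, SE 0.14), DMP1 (-0.091, SE 0.15) and LPL (0.093, SE 0.26) did not pass. With shCreb5 averaged over the conditions edgeR called 0 of 16 marker genes other than CREB5 and PRG4, with 10 at unadjusted p under 0.05 and 3 called by DESeq2. Among all genes edgeR called 0.239%, 13.9% had unadjusted p under 0.05, and DESeq2 called 255 of 19454. The marker lists too were weighted toward genes that differ with shCreb5, through the source of the symbols. SPP1 stood at 0.91 (SE 0.22), FABP4 at 0.91 (SE 0.38) and THY1 at 0.90 (SE 0.21, edgeR adjusted p = 0.0959), against -0.74 for CREB5 and -0.63 for PRG4. CD68 stood at 0.51 (SE 0.22), VCAM1 at 0.46 (SE 0.17), LPL at 0.44 (SE 0.26) and VWF at 0.42 (SE 0.17). VIT (-0.81, SE 0.26), CHAD (-0.60, SE 0.23) and CLU (-0.34, SE 0.11) were on the side of CREB5. So were TEK (-0.30, SE 0.13), CD55 (-0.27, SE 0.18), DMP1 (-0.26, SE 0.15) and CD14 (-0.15, SE 0.14). COL11A1 (0.010, SE 0.25) and HAPLN1 (-0.073, SE 0.19) were near level. The part of these marker genes in the level of PRG4 was not tested. Bulk libraries cannot tell fewer cells that make CREB5 or PRG4 RNA from less of it in each cell.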

How the data were processed

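The authors deposited a table of estimated counts per gene, made with Salmon, tximport and bcbio-nextgen against bovine build UMD 3.1. The counts were rounded to whole numbers and tested with edgeR 4.0.16 (quasi-likelihood, TMM, filter on low counts, calf as a block) in R 4.3.3, with Benjamini-Hochberg adjustment over all genes of each comparison and a threshold of 0.05. Alternatives used DESeq2 1.42.0 and limma 3.58.1. Levels are TMM-scaled CPM, with a prior count of 2 added before taking log2. The fits, exact tests and likeness were tested on simulated data.

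Calves were paired by the calf number in the labels, and the study's methods put the calf in the model. Residuals of libraries from the same calf correlated at 0.132 to 0.837 (median 0.670, 24 pairs), and those of different calves had a median of -0.234 and a highest value of 0.204. No library was a copy of another: the 24 pairs within groups differed by a chi-square per degree of freedom of 74.0 to 360.6.

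Symbols were at hand for 3157 of 19454 genes, 18 of them through RefSeq, and the rest from supplementary tables that hold only the top genes sorted by knockdown significance, so every list is biased toward genes changed by the knockdown. Lists came from textbook knowledge. Genes named were CREB5 and PRG4, the 5 most like and 3 most opposite each of them, and from each list up to 2 largest rises and 2 largest falls that passed in an averaged comparison, or the 2 most abundant genes where none passed; ST3GAL1, SFRP4 and GDF5 were also named after their values were seen. Members and lists were chosen with earlier results of these data known. Wilson intervals cover counting error only. RNA quality scores and sequencing kits were not assigned to single libraries.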

Additional observations from a re-analysis of the deposited data

How the results depend on the processing

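The calf was kept as a block because each calf gave a library to every group. With no replicate block, TGF-β2 in shScramble cells gave -0.42 for CREB5 (adjusted p = 0.349), 1.95 for PRG4 (0.268) and 213 genes, and in shCreb5 cells -0.85 (0.0737), 2.05 (0.209) and 232 genes. The averaged shCreb5 effect was then -0.75 for CREB5 (0.342) with 0 genes called in edgeR, and averaged TGF-β2 called 2625 genes. A block for each calf and shRNA gave -0.026 for the difference of the PRG4 response, with its sign turned.

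With DESeq2, shCreb5 in condition A gave -0.54 for CREB5 (6.99e-05), -0.63 for PRG4 (8.77e-07) and 79 genes, and in condition AB -0.95 for CREB5 (1.02e-08) and 55 genes. The averaged shCreb5 effect gave -0.62 for PRG4 (0.00408) and 255 genes, the difference of effects 10 genes, and TGF-β2 in shScramble cells 1.93 for PRG4 (0.0863). A single fit of all 16 libraries called 1 gene for shCreb5 in condition A, and 10 in condition AB with CREB5 at -0.95 (0.00549). Limma-voom called 1 gene in condition AB and put the difference of the PRG4 response at -0.027. Counts summed per calf and shRNA gave -0.67 for CREB5 (0.197) and 0 genes, and at least 10 counts in every library 20 genes.

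Leaving out each calf in turn, TGF-β2 in shScramble cells gave -0.42 to -0.33 for CREB5 (0.0539 to 0.0630), 1.85 to 2.04 for PRG4 (0.00103 to 0.0729) and 1434 to 1969 genes, and in shCreb5 cells 1990 to 3855 genes. The difference of the PRG4 response ran from -0.16 (without calf 4) to 0.22, and was -0.13 without calf 3. The averaged shCreb5 effect on CREB5 ran from -0.77 to -0.71 (0.0121 to 0.0649) and its genes from 2 to 356. For shCreb5 edgeR then called 0 to 1 genes without TGF-β2 and 0 to 2 with it.

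Of the genes named for likeness, calf means not subtracted kept 2 of 5 like and 0 of 3 opposite for CREB5 and 0 and 0 for PRG4. Spearman correlation kept 1 and 0 for CREB5 and 1 and 1 for PRG4. Without a calf 3 to 4 like and 0 to 2 opposite remained for CREB5, and 1 to 2 like and 2 to 3 opposite for PRG4.

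In the averaged shCreb5 effect some list genes that did not pass changed sign. With no replicate block these were CD55 (0.037) and HAPLN1 (0.049), with summed counts IFIT1 (-0.0018) and with limma-voom COL11A1 (-0.0014). Without a calf LTBP3 ran from -0.12 to 0.021, IFIT1 from -0.28 to 0.56, HAPLN1 from -0.27 to 0.12, IFIT5 from -0.071 to 0.31 and COL11A1 from -0.22 to 0.19.

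Of 182 alternative values for 14 fold changes of CREB5 and PRG4, 178 kept the direction and 160 also the side of the threshold. The 40 alternative values of 5 ratio changes moved by less than 1 SD, but the SD was wide. The change with shCreb5 in condition AB, 0.30, became 0.50 without calf 1, 0.54 without calf 2, 0.068 without calf 3 and 0.11 without calf 4, and the difference between conditions, 0.39, became 0.60, 0.62, 0.18 and 0.18. The cause of these changes was not tested.

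With 4 calves, exact tests could not give p under 0.125. The calls for shCreb5 depended on the method and on which calves were included. RNA was measured at a single time, protein was not measured, and every cell had TGF-α. Symbols were missing for most genes, so the lists were read in part.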
